A study of Mus musculus with 2 samples.

Results

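The 10 genes described here encode proteins that mouse neutrophils pack into their secondary (specific) and tertiary (gelatinase) granules. Ltf, Ngp, Camp, Lcn2, Mmp8, Mmp9, Hp, Fcnb, Chil3 and Cd177 were taken by symbol from the 32285 genes listed for both libraries, and all 10 were found. Single cells were profiled by 3′ droplet sequencing from the livers of C57BL/6 mouse embryos at stage E14.5, after a sort for cells without lineage markers and with the receptor c-Kit, the gate in which stem and progenitor cells of the blood are found. The Brd9 KO library came from CD45.2(+) Vav1-iCre Brd9fl/fl embryos, in which Cre is driven by regulatory sequence of Vav1, a gene active in blood cells. The control library, titled WT, came from CD45.2(+) Brd9fl/fl embryos, so both libraries carry the floxed alleles and the control carries no Cre. Brd9 encodes a bromodomain protein that belongs to a chromatin remodelling complex, the non-canonical form of BAF. There was 1 library per genotype, the sources used here do not say how many embryos were pooled, and no difference could be tested against replicates. All intervals are 95% intervals of counting error within these libraries.

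Neutrophils make their granules in sequence as they mature. The primary granules with their serine proteases and myeloperoxidase come first, the secondary granules with lactoferrin, lipocalin 2 and cathelicidin follow in the myelocyte and metamyelocyte, and the gelatinase granules come last. The C/EBP factors, and C/EBPε above all, are known activators of secondary granule genes.

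The cells that passed the filters numbered 6757 in the Brd9 KO library and 6860 in the control, and their median depths were 36007 and 38485.5 unique molecular identifiers (UMIs, each standing for 1 captured transcript molecule) each. Brd9 was at 7.06 UMIs per 1e6 UMIs (CPM) in the KO library, against 27.2 CPM in the control library, a log2 ratio of -1.95. Female cells, called from Xist and Y-linked transcripts, made up 58.9% of the KO library and 23.0% of the control library, so the mixture of female and male cells differed between the libraries. Over all cells Kit stood at 63.8 CPM in KO and 67.0 CPM in control, and the lineage markers Cd3e and Ly6g had 0 and 2 UMIs in KO and 0 and 0 in control. The libraries shared 16 cell barcodes. Summed over their lists, 4 hepatocyte markers stood at 12.9 CPM in the KO library and 29.8 CPM in the control, and 5 macrophage markers at 0.696 CPM and 1.47 CPM. All 4 hepatocyte markers and 2 of the 4 macrophage markers with 50 or more UMIs were lower in KO by more than 2-fold.

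Promoter sequence is shown for 5 genes on whose values the results mainly turn, since C/EBP factors are known to act on such promoters. The window searched was the 250 bases before the start that RefSeq gives on GRCm38.p6, read 5′ to 3′ on the strand of the gene. Each run printed is that window up to the first base that GENCODE M21 annotates as untranslated exon, since GENCODE places the starts of these genes further upstream, and the Lcn2 window lies within a longer GENCODE transcript. Capitals mark matches to TTNCNNAA on either strand (on the other strand it reads TTNNGNAA), the letters searched as a C/EBP-type sequence. The runs lie at chr9:109849618-109849706 on the minus strand (Camp), chr9:110419558-110419746 on the plus strand (Ngp), chr9:111019042-111019270 on the plus strand (Ltf), chr2:32387798-32387989 on the minus strand (Lcn2) and chr2:28084886-28085128 on the minus strand (Fcnb).
Camp: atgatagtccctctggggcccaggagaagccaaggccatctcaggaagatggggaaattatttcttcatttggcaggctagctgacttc
Ngp: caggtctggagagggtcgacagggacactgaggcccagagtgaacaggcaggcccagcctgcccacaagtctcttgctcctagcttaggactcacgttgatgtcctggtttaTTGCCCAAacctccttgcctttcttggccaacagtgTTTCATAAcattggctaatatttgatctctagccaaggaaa
Ltf: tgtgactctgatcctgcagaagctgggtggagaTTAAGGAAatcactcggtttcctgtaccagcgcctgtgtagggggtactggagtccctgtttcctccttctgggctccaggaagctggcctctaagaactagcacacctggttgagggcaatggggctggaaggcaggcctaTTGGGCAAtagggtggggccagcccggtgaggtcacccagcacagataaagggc
Lcn2: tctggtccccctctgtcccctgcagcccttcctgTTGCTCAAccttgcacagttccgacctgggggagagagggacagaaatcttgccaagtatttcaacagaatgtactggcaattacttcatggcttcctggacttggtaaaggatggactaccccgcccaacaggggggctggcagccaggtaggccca
Fcnb: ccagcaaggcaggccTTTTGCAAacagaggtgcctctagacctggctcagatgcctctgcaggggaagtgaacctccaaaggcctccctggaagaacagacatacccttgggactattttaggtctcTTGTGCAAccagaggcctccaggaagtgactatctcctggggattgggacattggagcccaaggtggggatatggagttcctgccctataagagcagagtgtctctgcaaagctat
Of the 10 genes, 8 had an entry in the promoter table, and Mmp9 and Hp had none. The TTNCNNAA letters were present in 7 of these 8 windows, Camp being the exception, against 36.8% of all 32536 windows in the table. In the Camp window only 89 of the 250 bases lie before the untranslated exon of GENCODE, and bases further upstream were not searched. Ngp had 3 matches, which began 138, 102 and 11 bases before its start, the last of them outside the run printed. The shorter GAGGAA letters of ETS factors, on either strand, were found in 4 of the 8 windows, against 23.4% of all windows, and matches to the 2 motifs did not overlap by their letters in these windows. A match describes the letters only.

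Over all kept cells, 5 of the 10 genes were lower in the Brd9 KO library by more than 2-fold. They were Camp, Fcnb, Hp, Ngp and Chil3, the last on 1 UMI in KO cells. Mmp8 alone was higher by more than 2-fold. Among all 16061 genes with 50 or more UMIs, 1.64% were lower by more than 2-fold and 0.909% were higher, and 7 of the 10 granule genes reached that number of UMIs. The median log2 ratio, KO over control, was -1.19 over the 10 genes, -0.62 over the 9 without Chil3, and -1.75 over the 7 with 50 or more UMIs, of which 4 were lower by more than 2-fold. Over the 16061 genes it was 0.04. Summed over cells of the neutrophil and progenitor gates defined further on, where Chil3 has no ratio, the median over the 9 genes was 0.078. In these sums, fewer cells of a type and fewer transcripts per cell cannot be told apart.

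**Figure D1:**
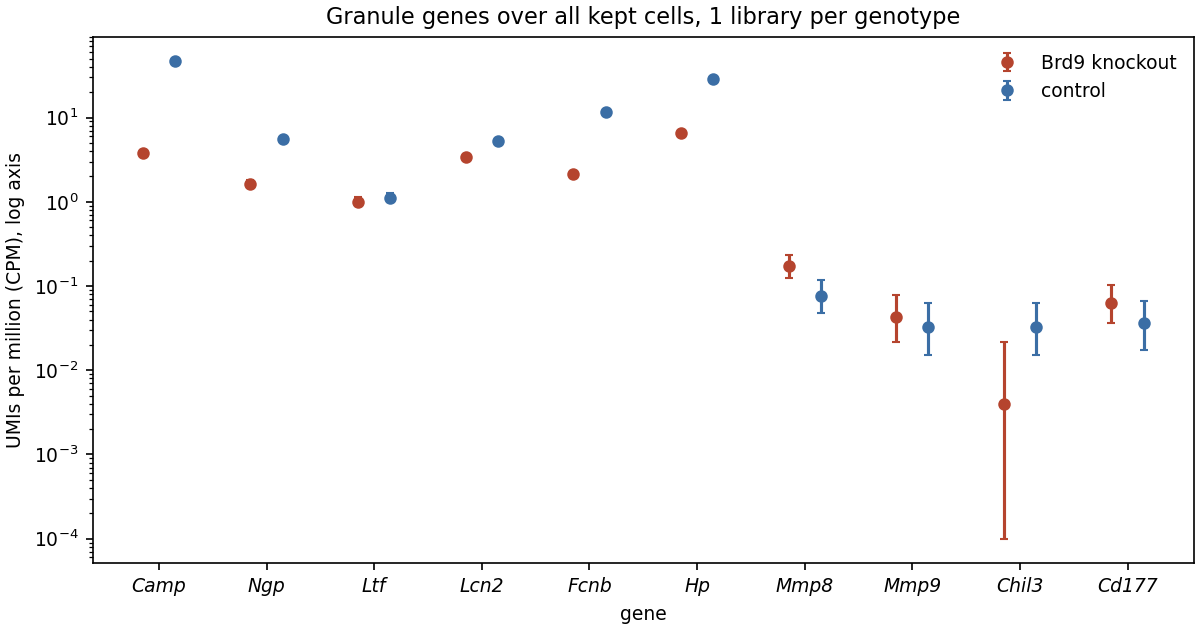
Level of each granule gene in CPM (log axis) summed over all kept cells of the Brd9 KO library and of the control library, 1 library per genotype, with exact Poisson 95% intervals. Camp stood at 3.81 CPM in KO and 46.5 CPM in control, while Ltf stood at 1.01 and 1.12 CPM with overlapping intervals.

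Among the secondary granule genes, Camp, which encodes the cathelicidin precursor of an antimicrobial peptide, had the lowest ratio of the 10 genes. Camp (chr9:109847379-109849617, mm10) had 970 UMIs in the KO library and 12760 in the control, which is 3.81 CPM (3.58 to 4.06) and 46.5 CPM (45.7 to 47.3), a log2 ratio of -3.61 (-3.70 to -3.51). It was seen in 251 KO cells (3.71%) and 485 control cells (7.07%). Ngp, the neutrophilic granule protein, lies on the same chromosome (chr9:110419747-110423012). It had 415 UMIs in KO and 1509 in control, or 1.63 and 5.50 CPM, a log2 ratio of -1.75 (-1.91 to -1.59). The number of Ngp-positive cells was 48 in KO and 69 in control.

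Ltf and Lcn2, both of which encode proteins that withhold iron from bacteria, were closer between the libraries. Ltf (lactoferrin, chr9:111019271-111042767) had 256 UMIs in KO and 308 in control, 1.01 and 1.12 CPM, and the interval of its log2 ratio of -0.16 included 0 (-0.40 to 0.09). Its value rested on very few cells. Without the 2 cells of each library with most Ltf, an alternative added after the values were seen, 47 UMIs remained in KO and 94 in control, and the log2 ratio was -0.89 (-1.43 to -0.37). Lcn2 (lipocalin 2, which binds siderophores, chr2:32384633-32388252) had 873 UMIs in KO and 1450 in control, 3.43 and 5.28 CPM, a log2 ratio of -0.62 (-0.74 to -0.50).

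Fcnb and Hp were low in KO, and their UMIs were less concentrated in few cells than those of Camp, Ngp, Ltf and Lcn2. Fcnb (ficolin B, a lectin that starts the complement pathway, chr2:28076378-28084885) had 537 UMIs in KO and 3223 in control, 2.11 and 11.7 CPM, a log2 ratio of -2.48 (-2.61 to -2.34). Hp (haptoglobin, which binds free haemoglobin and is also made by hepatocytes, chr8:109575128-109579172) had 1645 UMIs in KO and 7792 in control, 6.46 and 28.4 CPM, a log2 ratio of -2.13 (-2.21 to -2.06). Hp was the most widely detected of the 10 genes, with a UMI in 471 KO cells (6.97%) and 902 control cells (13.1%).

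The other 4 genes were close to the limit of detection in both libraries. Mmp8 (neutrophil collagenase, chr9:7558456-7568485) had 44 UMIs in 20 KO cells and 21 UMIs in 14 control cells, a log2 ratio of 1.18 (0.40 to 2.0), and 1 KO cell held 47.7% of the KO UMIs. Mmp9 (gelatinase B, the defining enzyme of tertiary granules, chr2:164940780-164955850) had 11 UMIs in KO and 9 in control. Chil3 (the chitinase-like protein Ym1, chr3:106147554-106167564) had 1 UMI in KO and 9 in control, all 9 in the same control cell, a log2 ratio of -3.06 (-8.51 to -0.21). Cd177 (a neutrophil surface protein also held in secondary granules, chr7:24743983-24760311) had 16 UMIs in KO and 10 in control. For Mmp9 and Cd177 the intervals of the log2 ratio, 0.40 (-1.01 to 1.85) and 0.79 (-0.44 to 2.09), included 0, so a difference was not detectable at this depth.

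Transcripts of these genes were held by few cells. In the KO library 3 cells held 50% of all Camp UMIs, against 14 cells in the control, and the top 10 cells held 73.4% in KO and 38.8% in control. For genes with 0.5 to 2 times as many UMIs as Camp in the same library, the median held by the top 10 cells was 3.59% in KO and 0.927% in control. The highest Camp count in a cell was 288 in KO and 676 in control, and 7 KO cells and 61 control cells had 10 or more Camp UMIs. For Ngp, 1 KO cell held 56.6% of the UMIs and 1 control cell 25.2%, and for Ltf 1 KO cell held 56.3% and 1 control cell 37.7%. Fcnb and Hp were less concentrated: 50% of the Fcnb UMIs lay in 10 KO cells and 33 control cells, and 50% of the Hp UMIs in 75 and 162 cells.

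The cells at the top of these rankings carried several of the genes. In the KO library the cell with the most UMIs of the 10 genes had 632, which was 13.3% of all of them, with 61 of Camp, 235 of Ngp, 144 of Ltf and 158 of Lcn2. In the control library the top cell had 1131, or 4.17%, with 423 of Camp, 381 of Ngp, 116 of Ltf and 188 of Lcn2. Between these cells the counts were furthest apart for Camp, while Fcnb (14 in the KO cell and 11 in the control cell) and Hp (15 and 12) were nearly equal, at total depths of 15314 UMIs in the KO cell and 12044 in the control cell. Both top cells had 0 Kit UMIs. Of the KO Mmp8 and Mmp9 UMIs, 21 and 5 were in 1 cell, which also held 65 of Ltf and 104 of Lcn2. Without the top cell of each library the log2 ratio of Ngp was -2.54 and that of Ltf -0.67.

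**Figure D2:**
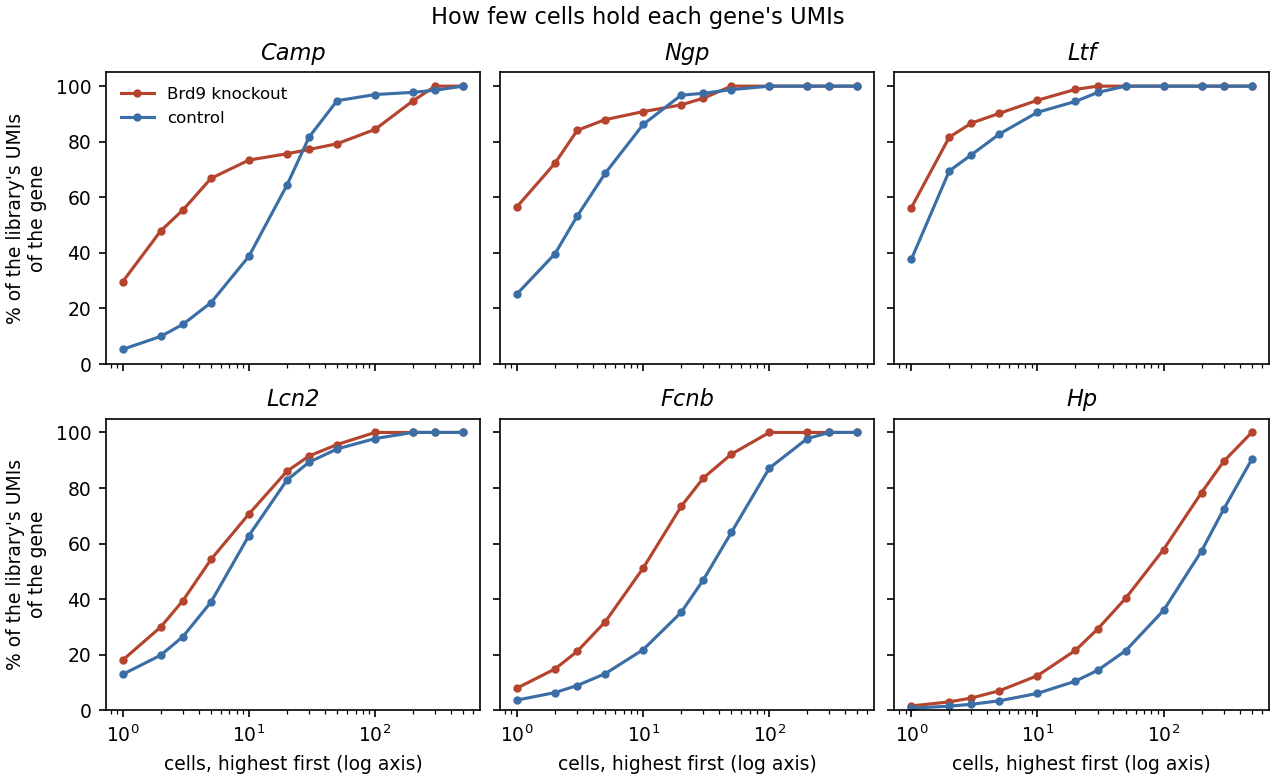
Cumulative percent of all UMIs of Camp, Fcnb, Hp, Lcn2, Ltf and Ngp against the number of cells, ranked from the cell with most UMIs, in the Brd9 KO and control libraries. For Camp the top 10 cells hold 73.4% in KO and 38.8% in control, and for Hp 12.5% and 6.10%.

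To place the transcripts, cells were gated on genes other than the 10. Cells with at least 10 UMIs of S100a8 plus S100a9 per 10000 formed a neutrophil gate, and, of the rest, cells with at least 10 of Mpo plus Prtn3 formed a granulocyte-monocyte progenitor (GMP) gate. The neutrophil gate held 101 KO cells (1.49%) and 201 control cells (2.93%), a ratio of shares of 0.510 (0.403 to 0.646), with median depths of 24515 and 23724 UMIs. Kit had a UMI in 53.5% of KO and 74.6% of control cells of this gate, and the part of that difference in the results was not tested. In the GMP gate were 591 KO cells (8.75%) and 922 control cells (13.4%), a ratio of 0.651 (0.590 to 0.718). The neutrophil gate held 77.1% of the KO and 96.9% of the control Camp UMIs, and Hp was divided between the neutrophil gate (43.3% in KO and 49.2% in control) and the GMP gate (52.7% and 48.7%).

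Within the neutrophil gate Camp, Fcnb and Hp remained lower in KO by more than 2-fold, Ngp lay at that limit, and Lcn2 and Ltf did not pass it. Among the 8830 genes with 50 or more UMIs in the gate, 0.827% were lower and 1.65% higher by more than 2-fold. Camp stood at 267 CPM in KO and 2327 CPM in control, a log2 ratio of -3.12 (-3.23 to -3.02), and had a UMI in 35.6% and 52.7% of the gate's cells. Among positive cells the median was 1.5 Camp UMIs in KO and 15.5 in control. Fcnb stood at 178 and 582 CPM, a log2 ratio of -1.71, in 60.4% of KO and 88.1% of control cells. Hp was in nearly every cell of the gate, 97.0% in KO and 99.5% in control, and differed in level, at 254 and 721 CPM, a log2 ratio of -1.50. Its median per cell was 5 UMIs in KO and 18 in control. Hepatocyte albumin (Alb) had 0 UMIs in the KO gate and 2 in the control gate.

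Lcn2 and Ltf were near or above their control levels in KO within that gate. Lcn2 stood at 297 CPM in KO and 264 CPM in control, a log2 ratio of 0.17 (0.05 to 0.30), in 53.5% and 42.3% of cells, and at 0.08 without the top cell of each library and 0.056 in a gate of at least 20 UMIs per 10000. Ltf stood at 87.0 and 53.4 CPM, a log2 ratio of 0.70 (0.45 to 0.95), and was found in 12 KO cells and 18 control cells. Ngp stood at 135 and 276 CPM, a log2 ratio of -1.02 (-1.19 to -0.86), and of -0.95 in a gate of at least 5 UMIs per 10000. Without the top cell of each library the ratio in the gate was 0.18 for Ltf and -1.98 for Ngp. Mmp8 had 25 UMIs in 3 KO cells and 0 UMIs in control, where a count of 0 allows up to 0.565 CPM. Cd177 had 12 UMIs in the KO gate and 1 in the control gate. Chil3 had 0 UMIs in the KO gate, which allows up to 1.07 CPM, and 9 in the control gate.

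**Figure D3:**
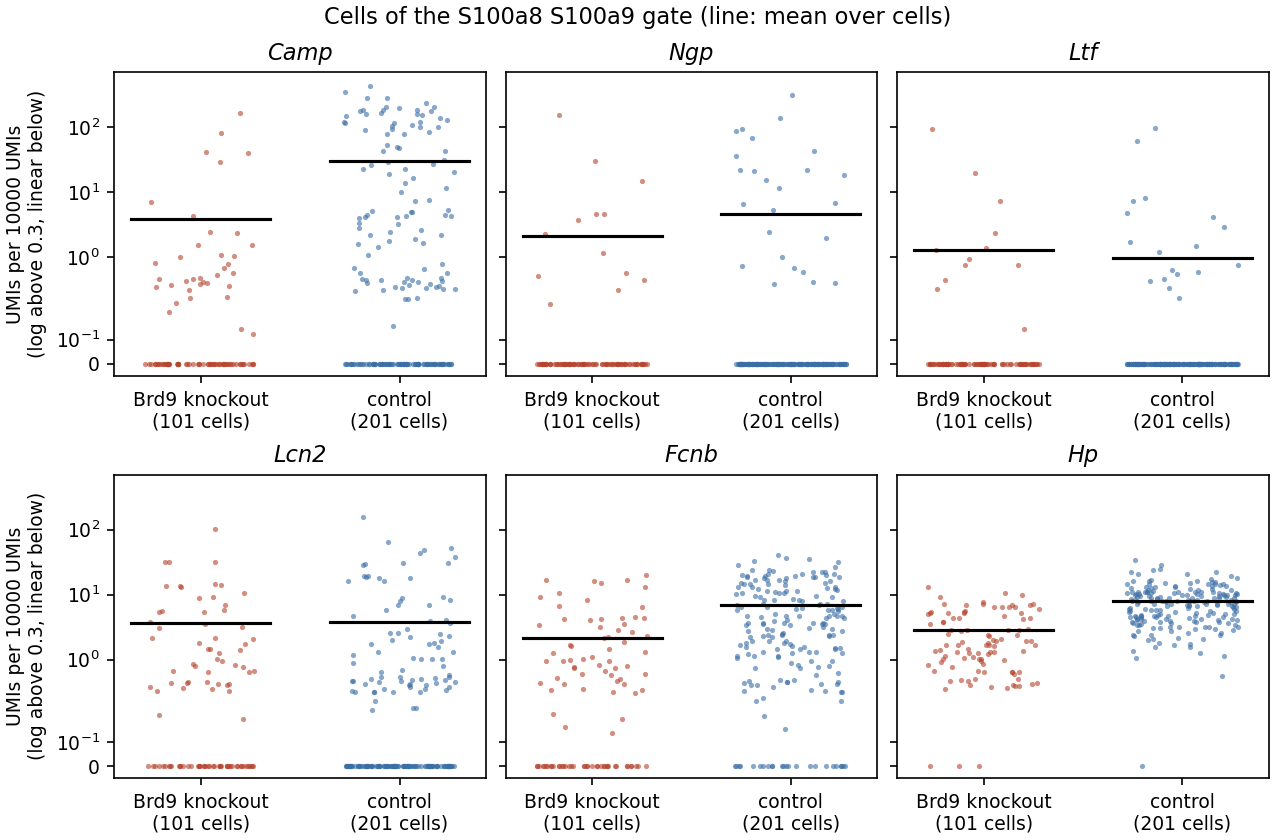
UMIs per 10000 of the granule genes in each cell of the neutrophil gate, 101 Brd9 KO cells and 201 control cells from 1 library each. Median Hp counts are 5 UMIs in KO and 18 in control cells, and Camp is present in 35.6% of KO and 52.7% of control cells.

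The ratio of a mean can be split into the share of positive cells and the level in them. Each cell was thinned to 18526 UMIs, after which the log2 ratio of the mean per cell is the sum of these parts. Over all cells the share contributed -1.69 and the level -0.98 for Fcnb, -1.10 and -1.06 for Hp, and -0.38 and -0.15 for Lcn2. For Camp and Ngp this split does not describe expressing cells, since 226 of the 251 Camp-positive KO cells and 390 of the 485 Camp-positive control cells held a single UMI, as did 39 of 48 Ngp-positive KO cells and 49 of 69 Ngp-positive control cells. Many of these lay in the erythroid gate described further on. In thinned cells of the neutrophil gate, 88 in KO and 172 in control, a set added after the values were seen, the parts were -0.75 and -3.25 for Camp, -0.73 and -1.04 for Fcnb, -0.14 and -1.31 for Hp, and 0.50 and -0.14 for Lcn2. Gate cells below 18526 UMIs are left out of this set. Among them were KO cells with 288, 73 and 61 Camp UMIs and control cells with 452 and 423. The log2 ratio of the Camp mean was -4.01 in thinned gate cells, against -3.12 for Camp CPM over the whole gate. The Camp parts thus describe the deeper gate cells only. Ngp was present in 6 thinned KO cells and 15 thinned control cells of the gate, and Ltf in 7 and 9, too few for the parts to be read. A thinned share over all cells below 0.5 times that of control was found for Fcnb and Hp, and for 1.24% of 15890 genes. Camp also passed this limit, with positive cells that are mostly at background.

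**Figure D4:**
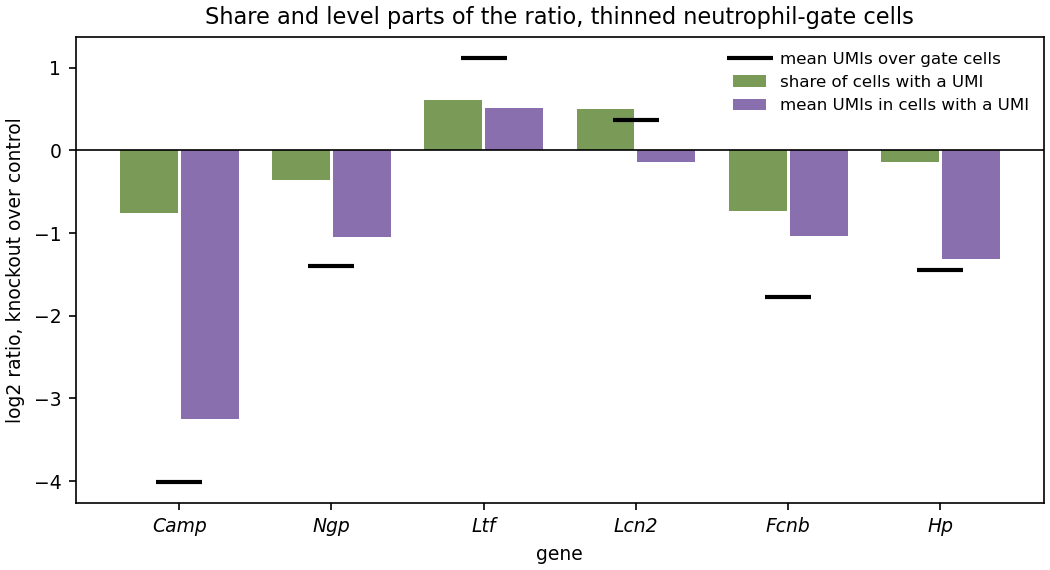
Log2 ratio, Brd9 KO over control, of the share of positive cells, of the mean UMIs in positive cells and of the mean per cell, for 6 granule genes in neutrophil-gate cells thinned to 18526 UMIs, 88 in KO and 172 in control. The level part is -3.25 for Camp and -1.31 for Hp, while Ngp and Ltf rest on 15 or fewer positive cells per library. Gate cells below 18526 UMIs, some of them rich in Camp, are left out.

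Values were also set side by side within ranges of S100a8 plus S100a9, a split added after the values were seen. From 10 to 30 per 10000 there were 17 KO and 42 control cells, from 30 to 100 there were 18 and 49, and above 100 there were 66 and 110. Fcnb had log2 ratios of -2.41, -2.35 and -2.01 in these 3 ranges, and Hp had -1.83, -1.63 and -1.67. For Camp they were -3.11 (-6.20 to -1.18), -1.49 (-3.01 to -0.25) and -3.55 (-3.66 to -3.44), the first and second on 2 and 6 UMIs in KO and 47 and 45 in control. Lcn2 had 0.64, 0.53 and -0.25 (-0.37 to -0.12), with intervals that included 0 in the lower 2 ranges, and 822 of its 833 KO UMIs in the gate lay in the top range. Nearly all Ngp UMIs and all Ltf UMIs of the gate lay in the top range. Their log2 ratios there were -1.45 (-1.62 to -1.29) for Ngp and 0.28 (0.03 to 0.53) for Ltf. In the top range the median of S100a8 plus S100a9 was 318 per 10000 in KO cells and 429 in control cells, so the cells there were not at equal levels.

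**Figure D5:**
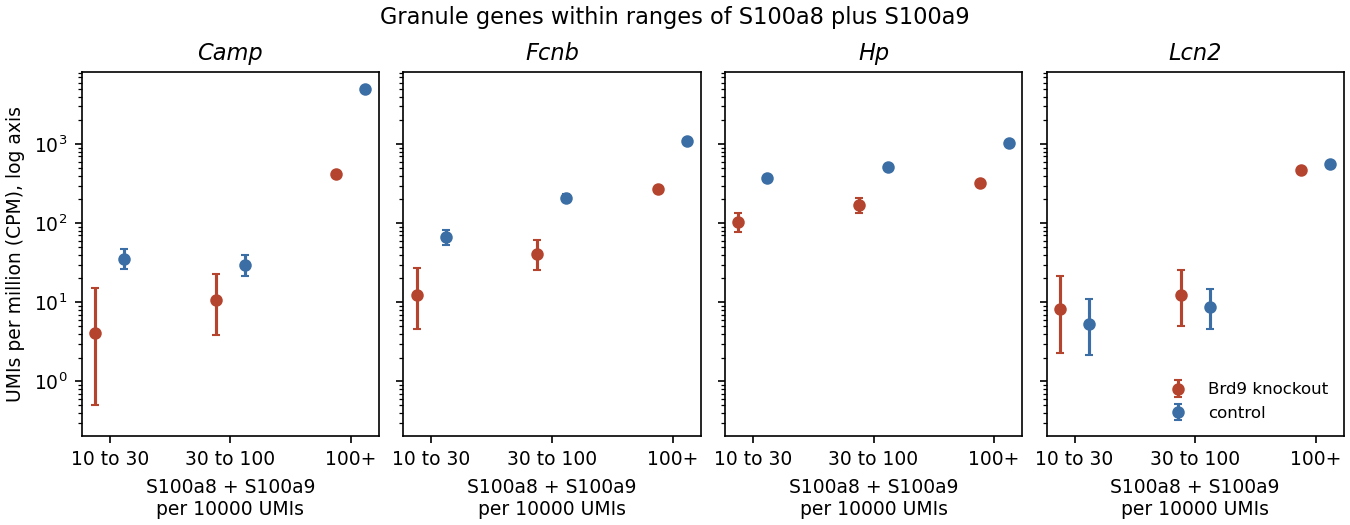
Level in CPM (log axis) of Camp, Fcnb, Hp and Lcn2 within 3 ranges of S100a8 plus S100a9 UMIs per 10000. Points are the Brd9 KO library and the control library, with exact Poisson 95% intervals. Camp, Fcnb and Hp are lower in KO in each range, while the log2 ratios of Lcn2, KO over control, are 0.64, 0.53 and -0.25.

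In the GMP gate, which lies earlier in the lineage, Hp was the main granule transcript. It stood at 47.2 CPM in KO and 120 CPM in control, a log2 ratio of -1.35, with a UMI in 53.1% and 60.3% of cells. Of the 12013 genes with 50 or more UMIs in the GMP gate, 1.15% were lower and 0.807% higher by more than 2-fold. Fcnb had 19 UMIs in KO and 93 in control, a log2 ratio of -1.51. Camp had 16 and 51, at 0.871 and 1.62 CPM, against 0.920 and 1.5 CPM in cells of the erythroid gate, so its level in the GMP gate was that of the background. Lcn2 had 31 UMIs in KO and 21 in control, a log2 ratio of 1.34. Both gates summed together gave Lcn2 a log2 ratio of 0.078, against -0.62 over all cells.

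Cells of the erythroid gate, which should not express these genes, gave the background level. Camp had a UMI in 3.71% of 4502 KO cells and 6.35% of 4770 control cells there, nearly always a single UMI, at median depths of 39261 and 41435 UMIs. Over the whole library Camp had a UMI in 3.71% of KO and 7.07% of control cells, so the share of Camp-positive cells over all cells is at this background in KO and near it in control. Albumin had a UMI in 1.95% of KO and 2.87% of control cells of the erythroid gate. Camp UMIs per Fcnb UMI were 15.6 (8.52 to 31.9) in KO and 10.1 (6.99 to 15.2) in control erythroid cells, and 1.5 (1.33 to 1.68) and 4.0 (3.84 to 4.16) in the neutrophil gates. For Ngp the erythroid share was 0.444% in KO and 0.629% in control, against 0.710% and 1.01% over all cells, so 20 of its 48 positive KO cells and 30 of its 69 positive control cells were erythroid. Hp was in 0.622% of KO and 2.20% of control cells of the erythroid gate, below its shares over all cells.

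Cells with UMIs of 3 or more of the 10 genes numbered 50 in the KO library (0.740%) and 138 in the control (2.01%), a ratio of 0.368 (0.267 to 0.507). After thinning they numbered 36 (0.563%) and 100 (1.53%). The neutrophil gate held 47 of the 50 KO cells and 122 of the 138 control cells, and together such cells held 65.8% of the KO and 78.7% of the control UMIs of the 10 genes. They were shallower than other cells, with median depths of 24953 UMIs in KO and 23684 in control. Kit had a UMI in 46.0% of the KO and 68.8% of the control cells of this kind, and Mpo in 96.0% and 98.6%.

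Pairs of genes were then counted together in cells of the neutrophil gate, a gene being present from 1 UMI. Camp-positive cells had a median of 1.5 Camp UMIs in KO and 15.5 in control, so they were not alike between the libraries. Fcnb was present in 26 of 36 Camp-positive KO cells (72.2%, 54.8 to 85.8) and in 103 of 106 Camp-positive control cells (97.2%, 92.0 to 99.4). It was also less frequent in KO among cells without Camp, at 53.8% in KO and 77.9% in control. Lcn2 was present in a larger share of Camp-positive cells in KO, 28 of 36 (77.8%, 60.8 to 89.9), against 63 of 106 in control (59.4%, 49.5 to 68.9). Of Lcn2-positive cells, 51.9% in KO and 74.1% in control had Camp. All 12 KO and 18 control Ltf-positive cells also had Lcn2. Of the pairs, Ngp and Ltf varied together with a Pearson correlation across gate cells of 0.85 in KO and 0.82 in control. These correlations run over cells of 1 library that share its depth and free RNA, and are given as a description.

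Because the libraries differed in their share of female cells, ratios were taken within each sex, male cells being called from low Xist alone. Camp had log2 ratios of -3.50 in female and -2.91 in male cells, Fcnb -2.10 and -1.84, and Hp -1.76 and -1.85. Ngp had -1.29 in female and -0.97 in male cells. Ltf was at 1.07 and 0.42, both of opposite sign to its ratio over all cells, and Lcn2 at -0.27 and -0.00. Ltf had 75 KO and 15 control UMIs in female cells, and 177 and 290 in male cells. A single KO cell held 65 of the female UMIs, and another held 144 of the male ones. Male control cells included cells with 116 and 98, so the Ltf ratios within a sex rest on very few cells. Within a library, female cells had less of the 6 genes with more than 100 UMIs than male cells, while Mmp8 in KO was higher in female cells, at 1.46 (0.33 to 2.78). The log2 ratio of female over male was -2.48 in KO and -1.90 in control for Camp, -2.24 and -1.97 for Fcnb, and -0.80 and -0.89 for Hp. For Ngp these were -2.70 and -2.39, for Ltf -1.91 and -2.56, and for Lcn2 -2.03 and -1.77. Sex and embryo cannot be told apart here, and for Ngp, Ltf and Lcn2 these gaps within a genotype were larger than the gap between genotypes taken within a sex, and for Fcnb they were of like size. The share of cells in the neutrophil gate was 1.0% in KO and 1.27% in control among female cells, a ratio of 0.791 (0.464 to 1.35), and 2.13% and 3.42% among male cells, a ratio of 0.624 (0.463 to 0.842). Within that gate, female and male cells had log2 ratios of -4.52 and -2.49 for Camp, -1.74 and -1.31 for Fcnb, -1.26 and -1.28 for Hp, -1.02 and -0.47 for Ngp, 0.11 and 0.53 for Lcn2, and 2.26 and 0.97 for Ltf. The gate held 40 KO and 20 control female cells, and 55 and 177 male cells. Among the female gate cells, Ltf had 71 UMIs in 3 KO cells and 8 UMIs in 1 control cell. Ngp was in 5 and 2 of these female cells and Camp in 11 and 8. The interval of the female Lcn2 ratio (-0.22 to 0.46) included 0.

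Other genes of the neutrophil programme were counted from lists, to be read beside the 36.0% of all 16061 genes below the control level, the 1.64% lower by more than 2-fold and, in the gate, the 0.827% lower and 1.65% higher by that much. All 9 primary granule genes were below the control level in KO, 5 of them by more than 2-fold, with a median log2 ratio of -1.04. Within the neutrophil gate 4 of the 9 were lower by more than 2-fold and none was higher by that much. Myeloperoxidase (Mpo) had a log2 ratio of -0.88 over all cells and -0.62 in the gate, the protease gene Prtn3 -0.89 and -0.62, and the proteoglycan gene Srgn -0.45 and -1.12. Of 14 measured genes of other granules and membranes, 3 were lower by more than 2-fold, with a median of -0.31. In the gate 1 of them was lower and 3 were higher by more than 2-fold, the higher ones including Adam8 on 6 UMIs in KO and 2 in control, named here after its values were seen. Lysozyme (Lyz2), at 1634 CPM in KO and 652 CPM in control cells of the gate, had a log2 ratio of 1.32 there and -0.10 over all cells.

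Of 6 S100 and stefin genes, 2 were lower by more than 2-fold over all cells. S100a8 and S100a9, which define the gate, had log2 ratios of -0.83 and -0.93 over all cells. Of 9 transcription factors, 1 was lower by more than 2-fold, and the median was -0.15. That was Gfi1, a repressor needed for neutrophil formation, at -1.51 over all cells and -0.81 in the gate (58.1 CPM in KO and 102 CPM in control). Cebpe, the C/EBPε gene, was at -0.58 over all cells and at 0.12 in the gate, with 466 CPM in KO and 429 CPM in control. None of 6 measured neutrophil receptors passed 2-fold, and the receptor for the growth factor G-CSF, Csf3r, was at -0.64 and -0.37.

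The genes most like the summed 10 across the 6860 control cells, among 10722 genes ranked, were Stfa1 (Pearson r = 0.91), Cstdc5 (0.86), S100a8 (0.86), Pglyrp1 (0.85), Elane (0.83) and S100a9 (0.83). These cells share a library, and the correlations are descriptive. The log2 ratios of these genes, KO over control, were -0.62 for the stefin gene Stfa1, -0.61 for Cstdc5, -1.07 for Pglyrp1, a peptidoglycan-binding granule protein, and -2.08 for Elane, the neutrophil elastase of primary granules.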

How the data were processed

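Both libraries were made with the 10x Genomics Single Cell 3′ kit v3.1, per the labels' protocols, and processed with Cell Ranger 7.2.0 on mm10, per the submitters' processing notes. The deposited values are raw UMI counts per gene and cell barcode. Strand and intron settings are not given in the sources used here. The files held 7289 barcodes and 271350214 UMIs for Brd9 KO, and 7399 barcodes and 292972312 UMIs for control.

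Barcodes were kept from 1000 genes and 2000 UMIs upward if mitochondrial UMIs did not exceed 10%, and doublets marked by Scrublet (scanpy 1.11.5, expected rate 6%) were removed, 244 in KO and 240 in control. UMIs were summed per library and scaled to CPM. Ratios are KO over control with conditional exact 95% intervals, shares have exact Clopper-Pearson intervals, and ratios of shares have log-normal ones. PCR duplicates are collapsed by UMI, and intervals and floors (3 counts) cover counting error only. For thinning, cells were drawn down to 18526 UMIs, percentile 5 of kept cells, which left out 367 KO and 314 control cells. Cells with at least 3 Xist and at most 1 Y-linked UMI were called female. Cells with at most 1 Xist UMI were called male, whatever their Y-linked UMIs. A female cell with little captured Xist would thus count as male. Coordinates are from GENCODE M21, where none of the 10 genes overlaps another gene. With 1 library per genotype no p-value was computed. The ratio intervals were tested on simulated Poisson gene totals, and thinning on made-up counts. That simulation does not model UMIs held by few cells, and the other steps were not tested in this way.

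The 10 genes and the lists were chosen with earlier results of these data known. Named from the related lists were up to 3 genes by highest control CPM plus Cebpe, Gfi1 and Csf3r, and the 6 genes most correlated with the summed 10. Of these, the ones not given in the text were Cyba, Anxa1, Runx1, Spi1, Cebpb, Fcgr3 and Cxcr4, with log2 ratios of 0.03, -0.26, 0.22, -0.41, 0.08, -0.03 and -0.34. Alternatives covered doublets, cell filters, scaling, sex, top cells, gates, presence limits and thinning. Protein sequences were not analysed here.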

Additional observations from a re-analysis of the deposited data

Results flagged for a closer look

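Mmp9 had opposite signs in the sexes, with log2 ratios, KO over control, of 1.92 and -0.87 in female and male cells. Female cells held 9 UMIs in KO and 1 in control, and male cells held 2 in KO and 8 in control. The difference between the sexes was not tested.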

How the results depend on the processing

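No paired analysis was possible because there is 1 library per genotype. The median log2 ratio of the 10 genes, -1.19 over all kept cells, was -0.27 in female cells, -1.62 without the 10 cells of each library with most of these UMIs, -1.52 as a mean of per-cell CPM, and 0.078 in the neutrophil and GMP gates together, where it changed sign. Without Chil3 the value over all kept cells was -0.62. Each median is over the genes with UMIs in both libraries, which leaves out Chil3 in these gates, in each sex and without those 10 cells. Lcn2 changed sign there too, at 0.078 against -0.62. The count of genes lower by more than 2-fold, 5, was 3 in male cells, 4 in female cells and in both gates, 6 as a mean of per-cell CPM and 7 without the 10 top cells. The ratio of shares of cells with 3 or more of the genes, 0.368, was 0.647 in female cells. The share of all genes lower by more than 2-fold, 1.64%, was 0.843% among genes with 500 or more UMIs and 9.08% among genes with 1 or more. The cause of these shifts was not tested. The other 28 values of these summaries moved by less than the limits used, the counts of 4, 6 and 7 included, as did the gate ratio of 0.492 at 5 and 0.549 at 20 UMIs per 10000. Of single-gene values, 54 moved by more than their interval and 98 did not. Scaling by the median ratio shifted all genes by 0.03 on the log2 scale. Mmp8, Mmp9, Chil3 and Cd177 are limited by depth, and no value has a check by replicates.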
